A study of Sus scrofa with 12 samples.

Results

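The genes described here are those of the autotaxin pathway, which makes, senses and removes the lipid signal lysophosphatidic acid (LPA). They were chosen by name as the rows of the count table whose symbol was ENPP2, LPAR1, LPAR2, LPAR3, LPAR4, LPAR6, PLPP1, PLPP2 or PLPP3. Of these 9 names, 7 had a row among the 31908 genes of the table. No row had the symbol LPAR6 or PLPP3. A row without a symbol (ENSSSCG00000003839) carries the identifier that a table of gene names pairs with PLPP3, and its values are given apart from the 7.

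The study asked how lysophosphatidylcholine (LPC), a lipid of oxidized low-density lipoprotein, and dantrolene, a drug that blocks ryanodine receptors, change porcine aortic valve interstitial cells (paVICs), the fibroblast-like cells of the valve leaflet. mRNA libraries were made after 24 h in medium with 1% serum from 4 groups of 3 (n = 3 per group). Wild-type cells received 10 μM LPC, 60 μM dantrolene, both agents, or the vehicle of 0.6% DMSO and 0.1% ethanol. Cells given LPC alone also received 0.6% DMSO, and cells given dantrolene alone also received 0.1% ethanol. The 3 libraries of a group came from 3 primary isolations grown on different days, each pooling valves of several hearts. The replicate number of a library was taken as its isolation. The cells had been frozen, thawed and passaged, and none of the libraries comes from intact valve.

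Autotaxin, the product of ENPP2, is a secreted lysophospholipase D that removes the choline head group of LPC and so turns it into LPA. LPA signals through G protein-coupled receptors, which act through Gi, Gq and G12/13 proteins and phospholipase C. Lipid phosphate phosphatases at the cell surface, encoded by the PLPP genes, remove the phosphate group of LPA and end the signal. Autotaxin and LPA are known in the aortic valve for their link with lipoprotein(a) and mineralization. The added LPC is thus also the substrate of the enzyme encoded by ENPP2.

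Total counts lay between 16489684 and 24105935 per library, and levels are given as TMM-scaled CPM, a measure that divides counts by the scaled size of each library. In these units 3 counts stand for 0.114 to 0.186 CPM. Levels were compared within a gene and not between genes, since no transcript lengths were used. The counts had been adjusted for isolation by the authors with ComBat, and since the tests treat them as if they were unadjusted, p-values here can be too small. Replicate 2 of LPC + dantrolene had the lowest mean correlation of log2 CPM with the other libraries (0.922, against 0.941 to 0.962 for the other 11). All 12 markers of interstitial cells and fibroblasts had a median above 1 CPM, among them COL1A1, VIM and PDGFRB. Of 6 leukocyte markers, PTPRC and CD3E had 0 counts in every library, while CD14 stood at 10.3 to 24.5 CPM and CD68 at 0.760 to 3.17 CPM. The summed level of these 6 was 12.4 to 28.5 CPM. Of 8 endothelial markers, 4 had a median above 1 CPM, with PECAM1 between 23.7 and 44.2 CPM, while KDR reached at most 0.238 CPM.

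Of the 7 genes with a row, 5 had enough counts for edgeR's filter and were tested with the rest of 13216 genes. These were ENPP2, LPAR1, LPAR2, PLPP1 and PLPP2. LPAR3 was detected at a few counts and LPAR4 had 0 counts in all 12 libraries. A gene was called changed at a Benjamini-Hochberg adjusted p under 0.05 in edgeR's quasi-likelihood test over all genes tested. In none of the 6 planned comparisons was any of the 5 called (0 of 5 in each). With 0.0227% to 8.8% of all genes called in these comparisons, a count of 0 of 5 does not set these genes apart. ENPP2 was higher on average with dantrolene than without it, and this difference passed the threshold only when libraries with and without LPC were averaged, a contrast added after the values were seen.

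**Figure D1:**
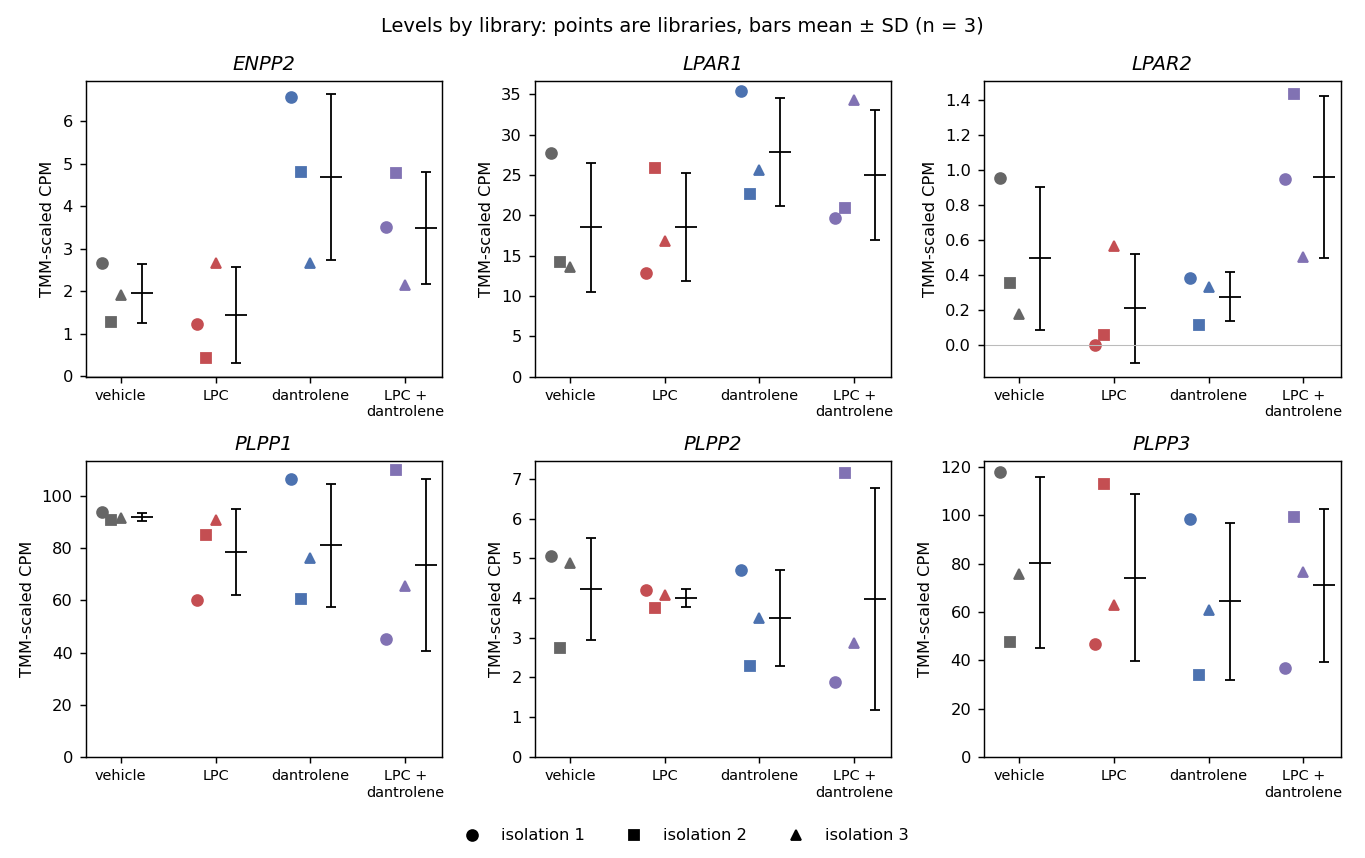
TMM-scaled CPM (linear axes) of the 5 tested genes and of PLPP3 in each library, by treatment. Symbols mark the isolation, horizontal bars the group mean and whiskers the SD (n = 3). ENPP2 lies between 0.434 and 2.67 CPM without dantrolene and between 2.16 and 6.57 CPM with it. The groups of each gene, ENPP2 included, overlap in most comparisons.

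ENPP2 (ENSSSCG00000006001, chromosome 4, 19319815 to 19433492 in the RefSeq genes of Sscrofa11.1) encodes autotaxin. In vehicle libraries of isolations 1, 2 and 3 it stood at 2.67, 1.28 and 1.92 CPM, from 56, 22 and 33 counts. With LPC it stood at 1.23, 0.434 and 2.67 CPM, from 24, 8 and 52 counts. With dantrolene it stood at 6.57, 4.80 and 2.67 CPM, from 120, 126 and 49 counts. These were the highest values of the 12 libraries in isolations 1 and 2, whereas the library of isolation 3 lay at the level of the highest vehicle library. With LPC + dantrolene it stood at 3.52, 4.78 and 2.16 CPM, from 67, 77 and 43 counts. The group means were 1.45 ± 1.14 CPM with LPC, 1.96 ± 0.694 CPM with vehicle, 3.49 ± 1.31 CPM with LPC + dantrolene and 4.68 ± 1.95 CPM with dantrolene (SD, n = 3). The step from vehicle to LPC + dantrolene was larger than the SD of either group, and the other steps in this order were smaller than both SDs. In bulk RNA, more RNA per cell and more cells of a kind that holds the RNA cannot be told apart.

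The first comparison asked whether the substrate lipid changed the expression of its enzyme. Between LPC and vehicle, ENPP2 differed by −0.44 ± 0.53 on the log2 scale (estimate ± SE, 95% interval −1.49 to 0.62, edgeR adjusted p = 0.714). It was lower with LPC in isolations 1 and 2 by −1.06 and −1.37 and higher in isolation 3 by 0.46. With each library left out, this log2 fold change of ENPP2 lay between −1.23, without LPC replicate 3, and −0.0081. None of the 5 genes was called by edgeR between LPC and vehicle, 0 had an unadjusted p under 0.05, and DESeq2 called 0 at either threshold. Across all genes tested, 8.69% were called in this comparison (8.54% higher and 0.144% lower with LPC), and 15.9% had an unadjusted p under 0.05.

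Dantrolene alone was compared with vehicle next. ENPP2 was 2.38-fold as high with dantrolene (95% interval 1.16 to 4.87, log2 fold change 1.25 ± 0.52), with an adjusted p of 0.15 in edgeR's quasi-likelihood test. The direction was the same in 3 of 3 isolations, by 1.27, 1.82 and 0.46 on the log2 scale. The lowest dantrolene library and the highest vehicle library were both at 2.67 CPM. ENPP2 was the 1 gene of the 5 with an unadjusted p under 0.05 in edgeR, and DESeq2 also gave 1 unadjusted and 0 adjusted. Of all genes, 8.8% were called here (7.54% higher and 1.26% lower with dantrolene) and 16.2% had an unadjusted p under 0.05. Over 18 alternative settings the log2 fold change of ENPP2 lay between 0.98 and 1.54 and its adjusted p between 0.055 and 0.488.

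In the presence of LPC, ENPP2 was 2.39-fold as high with dantrolene as without it (95% interval 1.15 to 4.96, log2 fold change 1.26 ± 0.53), with an edgeR adjusted p of 0.538. It was higher in isolations 1 and 2 by 1.44 and 3.18 and lower in isolation 3, where the difference was −0.30. With each library left out, this log2 fold change of ENPP2 lay between 0.83 and 2.05, the latter without LPC replicate 3, and it was 0.95 without replicate 2 of LPC + dantrolene. Again 1 of the 5 genes had an unadjusted p under 0.05 and 0 were called in edgeR, and DESeq2 gave 2 and 0. Over all genes 0.507% were called and 6.61% had an unadjusted p under 0.05. The difference between LPC + dantrolene and vehicle was 0.82 ± 0.52 for ENPP2 (95% interval −0.21 to 1.86, edgeR adjusted p = 0.565) and lay in the same direction in 3 of 3 isolations. Here 0 of the 5 genes were called or had an unadjusted p under 0.05 in either tool, against 7.14% of all genes called (6.23% higher and 0.9% lower) and 14.5% at an unadjusted p under 0.05.

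The effect of dantrolene on ENPP2 did not depend detectably on LPC. The interaction subtracts the LPC effect seen without dantrolene from that seen with it. It was 0.01 ± 0.67 on the log2 scale for ENPP2, with a wide 95% interval of −1.32 to 1.34 (edgeR adjusted p = 0.997). Over all genes, 4.65% were called for the interaction (0.159% higher and 4.49% lower) and 14.5% had an unadjusted p under 0.05, while 0 of the 5 genes passed either threshold in edgeR or DESeq2. Adding LPC to dantrolene gave ENPP2 a difference of −0.43 ± 0.51 (95% interval −1.44 to 0.58, edgeR adjusted p = 1). In that comparison 0 of the 5 genes passed either threshold in edgeR or DESeq2, with 0.0227% of all genes called and 1.28% at an unadjusted p under 0.05.

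Averaged over libraries with and without LPC, a contrast added after the values were seen, ENPP2 was 2.39-fold as high with dantrolene (95% interval 1.43 to 3.98, log2 fold change 1.25 ± 0.37, edgeR adjusted p = 0.0336). ENPP2 was the 1 gene of the 5 called, where 4% of all genes were called, and 2 had an unadjusted p under 0.05, where 13.1% of all genes did. The average difference was 1.36 in isolation 1, 2.50 in isolation 2 and 0.08 in isolation 3, so isolation 3 added almost nothing to it. The call of ENPP2 was lost in DESeq2's Wald test (adjusted p = 0.0552) and with the isolation as a replicate block (log2 fold change 1.30, edgeR adjusted p = 0.127). ENPP2 also lost the call without vehicle replicate 1, 2 or 3 (edgeR adjusted p = 0.0563, 0.135 and 0.0582), LPC replicate 1 or 2 (0.111 and 0.178), dantrolene replicate 1 or 2 (0.111 for each) or LPC + dantrolene replicate 1 (0.0757). ENPP2 kept it without replicate 2 of LPC + dantrolene (edgeR adjusted p = 0.0227). The estimate for ENPP2 stayed between 1.04 and 1.65 on the log2 scale over 17 alternatives. For LPC averaged over dantrolene, the other added contrast, ENPP2 gave −0.43 ± 0.37, and 0 of the 5 genes passed either threshold in edgeR or DESeq2, with 3.13% of all genes called and 9.44% at an unadjusted p under 0.05. In this contrast, the interaction and LPC + dantrolene against vehicle, DESeq2 gave no adjusted p for 1 of the 5 genes.

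**Figure D2:**
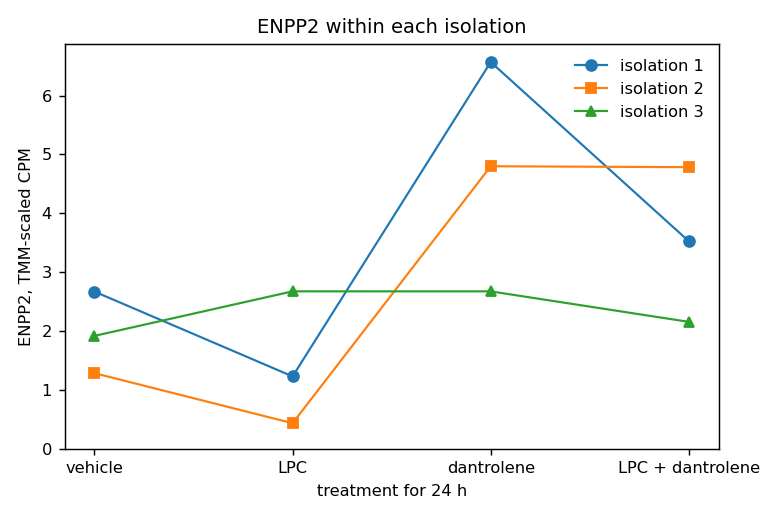
TMM-scaled CPM of ENPP2 (linear axis from 0) in the 4 treatments, with a line joining the libraries of each isolation. In isolations 1 and 2 both dantrolene-treated libraries lie above both libraries without it, and in isolation 3 the 4 libraries lie between 1.92 and 2.67 CPM.

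The summed level of the endothelial markers was lower in each treated group than with vehicle, whereas the mean of ENPP2 was higher with dantrolene and, not beyond its spread, lower with LPC. The endothelial sum was 86.5 to 88.9 CPM in vehicle libraries, 64.0 to 71.2 CPM with LPC, 48.9 to 67.1 CPM with dantrolene and 53.5 to 62.3 CPM with LPC + dantrolene. The fibroblast marker sum overlapped between vehicle (84758 to 100706 CPM) and LPC + dantrolene (60970 to 111923 CPM) and was lower with dantrolene (59045 to 79116 CPM). The part of these shifts in the level of ENPP2 was not tested.

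Over the 12 libraries, the genes with a symbol whose log2 CPM followed that of ENPP2 most closely were DRGX (Pearson r = 0.902), NFATC2 (r = 0.893) and PDSS2 (r = 0.862). They were picked as the highest among all genes tested, and the 12 points share groups and isolations, so the values are a description. NFATC2, a calcium- and calcineurin-regulated transcription factor, averaged 3.22 CPM with vehicle, 3.23 CPM with LPC, 6.50 CPM with dantrolene and 5.59 CPM with LPC + dantrolene. Its dantrolene against vehicle difference was 1.01 on the log2 scale (edgeR adjusted p = 0.159). DRGX stayed near the detection floor, with at most 0.504 CPM as a group mean.

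**Figure D3:**
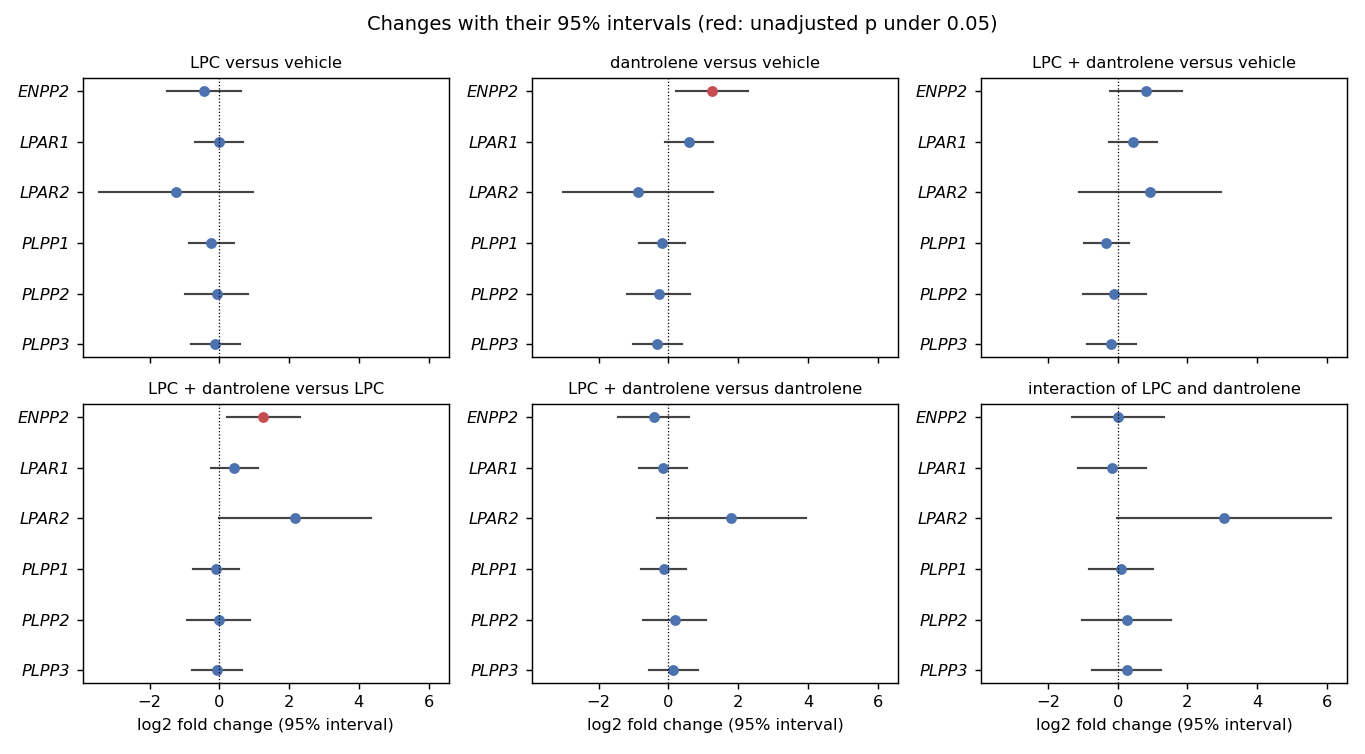
Log2 fold changes (horizontal axes) of the 5 tested genes and PLPP3 in the 6 planned comparisons, as points with 95% intervals from edgeR's quasi-likelihood fit. Red points have an unadjusted p under 0.05, which holds only for ENPP2 in 2 of the panels, and LPAR2 has the widest intervals.

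The receptors were measured at very different precision. LPAR1 (ENSSSCG00000005457, chromosome 1, 251811583 to 251979828) encodes the most widely expressed LPA receptor, which couples to Gi, Gq and G12/13 proteins. It had between 234 and 685 counts in each library. In isolations 1, 2 and 3 it stood at 27.8, 14.2 and 13.6 CPM with vehicle and at 12.8, 25.9 and 16.8 CPM with LPC. With dantrolene it stood at 35.4, 22.6 and 25.6 CPM, and with LPC + dantrolene at 19.7, 20.9 and 34.3 CPM. The vehicle and LPC means were both 18.5 CPM (SD 7.99 and 6.71), followed by 25.0 ± 8.11 CPM with LPC + dantrolene and 27.9 ± 6.70 CPM with dantrolene (SD, n = 3), and all groups overlapped.

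LPAR1 differed between dantrolene and vehicle by 0.59 ± 0.35 on the log2 scale (95% interval −0.10 to 1.27, edgeR adjusted p = 0.438) and was higher in 3 of 3 isolations. Averaged over LPC, the dantrolene difference of LPAR1 was 0.51 ± 0.24 (95% interval 0.03 to 1.00, edgeR adjusted p = 0.33), and it was positive in 3 of 3 isolations. The mean LPC difference of LPAR1 was near 0 (−0.00396 ± 0.35, 95% interval −0.69 to 0.68), but the isolations went apart, with −1.11 in isolation 1, 0.86 in isolation 2 and 0.30 in isolation 3. The sign of this near-zero mean changed with the setting, and that of the dantrolene differences of LPAR1 held under all alternatives run.

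LPAR2 (ENSSSCG00000013932, chromosome 2, 58296381 to 58300869), a receptor that couples to the same G protein classes, was barely detected. Its counts in isolations 1, 2 and 3 were 20, 6 and 3 with vehicle, 0, 1 and 11 with LPC, 7, 3 and 6 with dantrolene and 18, 23 and 10 with LPC + dantrolene. In CPM, the LPC + dantrolene libraries spanned 0.501 to 1.43 and the dantrolene libraries 0.114 to 0.383. The vehicle and LPC libraries overlapped both ranges. The difference between LPC + dantrolene and dantrolene was 1.80 ± 1.07 on the log2 scale (95% interval −0.33 to 3.94) and was not called by edgeR. Besides vehicle replicate 1, only the LPC + dantrolene libraries had enough counts for the filter, so LPAR2 was tested through that group. Its differences and interaction that involve LPC + dantrolene are therefore a description. The largest difference of LPAR2 between 2 groups was 2.17 ± 1.10 on the log2 scale between LPC + dantrolene and LPC (95% interval −0.02 to 4.36, edgeR adjusted p = 0.77). The interaction for LPAR2 was 3.04 ± 1.54 (95% interval −0.03 to 6.11, edgeR adjusted p = 0.348). With each library left out, these values of LPAR2 lay between 1.59 and 4.86 and between 2.13 and 5.73, the highest of both without LPC replicate 3 and the lowest interaction without vehicle replicate 1. At these counts, differences of several fold in LPAR2 were not detectable.

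LPAR3 (ENSSSCG00000003756, chromosome 6, 128860210 to 128937769), which couples to Gi and Gq, did not pass the filter. Its counts in isolations 1, 2 and 3 were 5, 0 and 1 with vehicle, 10, 6 and 3 with LPC, 6, 0 and 7 with dantrolene and 3, 0 and 2 with LPC + dantrolene. The groups overlapped, and each group but LPC held a library at 0. LPAR4 (ENSSSCG00000012445, chromosome X, 62862158 to 62876184), a receptor of the other, purinergic receptor-like family, had 0 counts in each of the 12 libraries. A count of 0 allows up to 3 counts, or 0.114 to 0.186 CPM per library, for counting error only. Of 3 further receptors reported to bind LPA, LPAR5 had between 0 and 15 counts, P2RY10 had 0 in every library, and GPR35 alone was tested. GPR35 averaged 4.32 CPM with vehicle, 2.57 CPM with LPC, 4.02 CPM with dantrolene and 4.39 CPM with LPC + dantrolene, and it was called in none of the comparisons in edgeR.

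None of the phosphatases was called by edgeR in any contrast. PLPP1 (ENSSSCG00000016912, chromosome 16, 34604367 to 34741524) encodes a lipid phosphate phosphatase of broad tissue range. In isolations 1, 2 and 3 it stood at 93.8, 91.0 and 91.6 CPM with vehicle and at 60.0, 85.0 and 91.0 CPM with LPC. It stood at 107, 60.5 and 76.2 CPM with dantrolene and at 45.3, 110 and 65.6 CPM with LPC + dantrolene. The vehicle libraries of PLPP1 were close together (SD 1.49 CPM), and the spread was 16.4 CPM with LPC, 23.5 CPM with dantrolene and 33.0 CPM with LPC + dantrolene. The differences of PLPP1 from vehicle were −0.23 ± 0.33 with LPC, −0.18 ± 0.33 with dantrolene and −0.32 ± 0.33 with both on the log2 scale (edgeR adjusted p = 0.751, 0.844 and 0.835). The 95% intervals of PLPP1 reached from −0.88 to 0.42, from −0.83 to 0.46 and from −0.97 to 0.33.

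PLPP2 (ENSSSCG00000014004, chromosome 2, 77945760 to 77957318) encodes a related phosphatase. In isolations 1, 2 and 3 it stood at 5.06, 2.74 and 4.88 CPM with vehicle, at 4.20, 3.75 and 4.06 CPM with LPC, at 4.71, 2.29 and 3.49 CPM with dantrolene and at 1.89, 7.14 and 2.86 CPM with LPC + dantrolene. The LPC + dantrolene group held both the lowest and the highest of the 12 libraries, and its SD of 2.79 CPM was the widest of the 4 groups, against 0.233 CPM with LPC. All groups overlapped, and the differences of PLPP2 from vehicle were −0.08, −0.28 and −0.10 on the log2 scale with LPC, dantrolene and both (edgeR adjusted p = 0.939, 0.828 and 0.979).

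PLPP3, matched by identifier (chromosome 6, 155800838 to 155894919 for the gene of that name), encodes the phosphatase that vascular cells use to degrade LPA. In isolations 1, 2 and 3 it stood at 118, 47.6 and 75.7 CPM with vehicle and at 98.6, 33.9 and 60.6 CPM with dantrolene. With LPC it stood at 46.9, 113 and 62.9 CPM, and with LPC + dantrolene at 37.0, 99.4 and 76.7 CPM. Isolation 1 was thus high without LPC and low with it, isolation 2 was the reverse, and isolation 3 lay between. Averaged over dantrolene, the LPC difference of PLPP3 was −1.37 in isolation 1, 1.40 in isolation 2 and 0.04 in isolation 3 on the log2 scale. The mean over isolations was 0.01 ± 0.25 (95% interval −0.49 to 0.51, edgeR adjusted p = 1). Among the 13216 genes tested, 373 (2.82%) had LPC differences of at least 1 in opposite directions in isolations 1 and 2, and 127 of them were lower in isolation 1 and higher in isolation 2, as PLPP3 was. The isolation of each library was taken from the replicate number in its label and was not checked in another way. The counts of each isolation had been adjusted together, and the part of that step in this pattern was not tested.

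As a group, the 5 tested genes had a median log2 fold change of −0.23 with LPC, −0.18 with dantrolene and 0.43 with LPC + dantrolene relative to vehicle. The medians of all genes tested were −0.18, −0.11 and −0.08. With total counts in place of TMM factors the medians of all genes became −0.00232, 0.13 and 0.12, so small differences of either sign depend on the scaling.

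Of 18 tested genes of other enzymes that make or use LPA, among them the phospholipases PLD1 and PLD2, acylglycerol kinase AGK and the AGPAT acyltransferases, 0 were called by edgeR in any of the 8 contrasts. The list held 23 names, of which 21 had a row. Their median log2 fold change was −0.32 with LPC, −0.25 with dantrolene and −0.15 with both relative to vehicle, each below the median of all genes. Of 4 tested ENPP family members other than autotaxin, 0 were called, and of 12 tested genes of sphingosine 1-phosphate enzymes, receptors and PLPP-related proteins 0 were called in any contrast. Since 0.0227% to 8.8% of all genes were called in these contrasts, counts of 0 in lists of this size do not set them apart.

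Some G proteins and phospholipases C downstream of LPA receptors were called. Of 10 tested genes, 4 rose and 0 fell with LPC relative to vehicle (median log2 fold change 1.06), where 8.54% of all genes rose. With dantrolene 5 rose and 0 fell (median 0.82), where 7.54% of all genes rose, and with LPC + dantrolene 2 rose and 0 fell (median 0.50), where 6.23% did. The others did not pass the test. Of those not called with LPC, GNA11, GNA12, GNAI2 and PLCB3 were lower (log2 fold changes −0.14, −0.37, −0.31 and −0.46). GNAI3 and PLCB4 were higher (0.84 and 1.48). GNAI2 stood at 788 CPM with vehicle and 634 CPM with LPC and was lower in 3 of 3 isolations. GNAI1, a Gi subunit, rose from 42.9 to 131 CPM with LPC (log2 fold change 1.61 ± 0.35, edgeR adjusted p = 0.000476). PLCB1, a phospholipase C, rose from 23.4 to 62.6 CPM (1.42 ± 0.35, edgeR adjusted p = 0.00283). GNAI1 and PLCB1 were called with LPC under each of 19 alternatives. GNAQ, the Gq subunit, rose from 23.8 to 60.8 CPM (1.35 ± 0.35, edgeR adjusted p = 0.00439) and lost the call without vehicle replicate 3 or LPC replicate 2 (edgeR adjusted p up to 0.0529). GNA13, a G12/13 family subunit, rose from 37.3 to 91.4 CPM (1.29 ± 0.34, edgeR adjusted p = 0.0054) and lost the call without vehicle replicate 2 or 3 or LPC replicate 1 (edgeR adjusted p up to 0.0646).

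With dantrolene, PLCB4, another phospholipase C, rose from 0.881 to 4.54 CPM (log2 fold change 2.35 ± 0.62, edgeR adjusted p = 0.00562). PLCB1 rose to 57.8 CPM (1.30 ± 0.35, edgeR adjusted p = 0.00774) and GNAI1 to 92.8 CPM (1.11 ± 0.34, edgeR adjusted p = 0.0249). PLCB1 lost the call without dantrolene replicate 2 or vehicle replicate 3 (edgeR adjusted p = 0.204 and 0.0886). The calls of PLCB4, GNAI1, GNA13 and GNAQ with dantrolene were each lost without any one of 4 to 7 of the 12 libraries, vehicle replicate 2, LPC replicate 2 and dantrolene replicate 2 among them in each case (edgeR adjusted p up to 0.285). With the replicate block, the calls of GNAI1, GNA13 and GNAQ were also lost (edgeR adjusted p = 0.058, 0.0646 and 0.083), and that of PLCB4 was lost in DESeq2 (adjusted p = 0.163). With LPC + dantrolene, PLCB1 rose by 1.31 and GNAI1 by 1.05 on the log2 scale (edgeR adjusted p = 0.00784 and 0.0444). Their calls were lost without 2 and 7 of the libraries (edgeR adjusted p up to 0.297 and 0.418), LPC + dantrolene replicate 3 and vehicle replicate 3 among them for both. With only the groups compared, both calls were lost (edgeR adjusted p = 0.053 for PLCB1 and 0.144 for GNAI1), and the GNAI1 call was also lost with the replicate block (edgeR adjusted p = 0.136) and in DESeq2 (adjusted p = 0.0628).

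Some genes known to be induced by LPA were called in comparisons that involve dantrolene. Of 12 tested, 0 were called with LPC by edgeR relative to vehicle (median −0.37), where 8.69% of all genes were. With dantrolene 1 rose and 2 fell, and with LPC + dantrolene 1 rose and 2 fell, where 8.8% and 7.14% of all genes were called in either direction. CXCL8, the neutrophil chemokine interleukin 8, rose from 0.583 CPM with vehicle to 4.48 CPM with dantrolene (log2 fold change 2.89 ± 0.60, edgeR adjusted p = 0.000325) and to 17.7 CPM with both agents (4.88 ± 0.63, edgeR adjusted p = 6.65e-08). With each library left out, these log2 fold changes of CXCL8 lay between 2.08 (without dantrolene replicate 3) and 3.65 and between 3.10 (without LPC + dantrolene replicate 3) and 5.64, both highest values without vehicle replicate 1. In DESeq2 the dantrolene call of CXCL8 was lost (adjusted p = 0.0951). With LPC alone CXCL8 was 2.49-fold as high as with vehicle and higher in 3 of 3 isolations. It was not called there (edgeR adjusted p = 0.243). Averaged over dantrolene, the added LPC contrast called CXCL8 (log2 fold change 1.65, edgeR adjusted p = 0.00788). That call was lost without any 1 of 5 libraries (edgeR adjusted p up to 0.764). It was also lost in DESeq2 (adjusted p = 0.446). With total counts and the replicate block it was lost too (edgeR adjusted p = 0.109 and 0.131).

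The 2 genes that fell were CCN2 and ANKRD1. CCN2, connective tissue growth factor, fell from 3072 to 1216 CPM with dantrolene (log2 fold change −1.34 ± 0.37, edgeR adjusted p = 0.00942), and ANKRD1, a stretch-induced nuclear cofactor, from 74.2 to 31.8 CPM (−1.22 ± 0.38, edgeR adjusted p = 0.028). The CCN2 call was lost without vehicle replicate 3, LPC replicate 2 or dantrolene replicate 2 or 3 (edgeR adjusted p up to 0.168). The ANKRD1 call was lost without vehicle replicate 2 or 3, LPC replicate 1 or 2 or dantrolene replicate 1 or 3 (edgeR adjusted p up to 0.285). Both calls were also lost in DESeq2 (adjusted p = 0.204 for CCN2 and 0.427 for ANKRD1) and with total counts (edgeR adjusted p = 0.0506 and 0.268), and that of ANKRD1 with RLE factors (edgeR adjusted p = 0.0515) and the replicate block (0.106). With LPC + dantrolene ANKRD1 fell to 21.1 CPM and CCN2 to 1315 CPM (edgeR adjusted p = 0.00058 and 0.0224). There the ANKRD1 call was kept without each library, and the CCN2 call was lost without vehicle replicate 1 or 3, LPC replicate 2 or LPC + dantrolene replicate 1 or 3 (edgeR adjusted p up to 0.352), while without LPC + dantrolene replicate 2 the log2 fold change of CCN2 went from −1.22 to −1.87. In DESeq2 both calls were lost (adjusted p = 0.106 for ANKRD1 and 0.329 for CCN2). The CCN2 call was also lost with total counts, only the groups compared and the replicate block (edgeR adjusted p = 0.0604, 0.204 and 0.09). The comparisons with vehicle share the vehicle libraries.

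Between LPC + dantrolene and LPC, 1 gene of this list rose and 1 fell, where 0.219% of all genes rose and 0.288% fell. CXCL8 was 3.56 ± 0.57 higher on the log2 scale (edgeR adjusted p = 7.82e-05), a call lost without LPC replicate 2 or LPC + dantrolene replicate 3 (edgeR adjusted p up to 0.308). The CXCL8 call was also lost in DESeq2 (adjusted p = 0.142), with total counts and with the replicate block (edgeR adjusted p = 0.0668 and 0.0753), and the difference lay between 1.77 (without LPC + dantrolene replicate 3) and 4.20 (without LPC replicate 1). ANKRD1 was lower by −1.84 ± 0.39 (edgeR adjusted p = 0.00531), a call lost without vehicle replicate 1, LPC replicate 1, 2 or 3 or LPC + dantrolene replicate 3 (edgeR adjusted p up to 0.296). The value of ANKRD1 without LPC replicate 3 was −1.21. Its call was also lost in DESeq2 (adjusted p = 0.321), with total counts, only the groups compared and the replicate block (edgeR adjusted p = 0.179, 0.113 and 0.151).

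**Figure D4:**
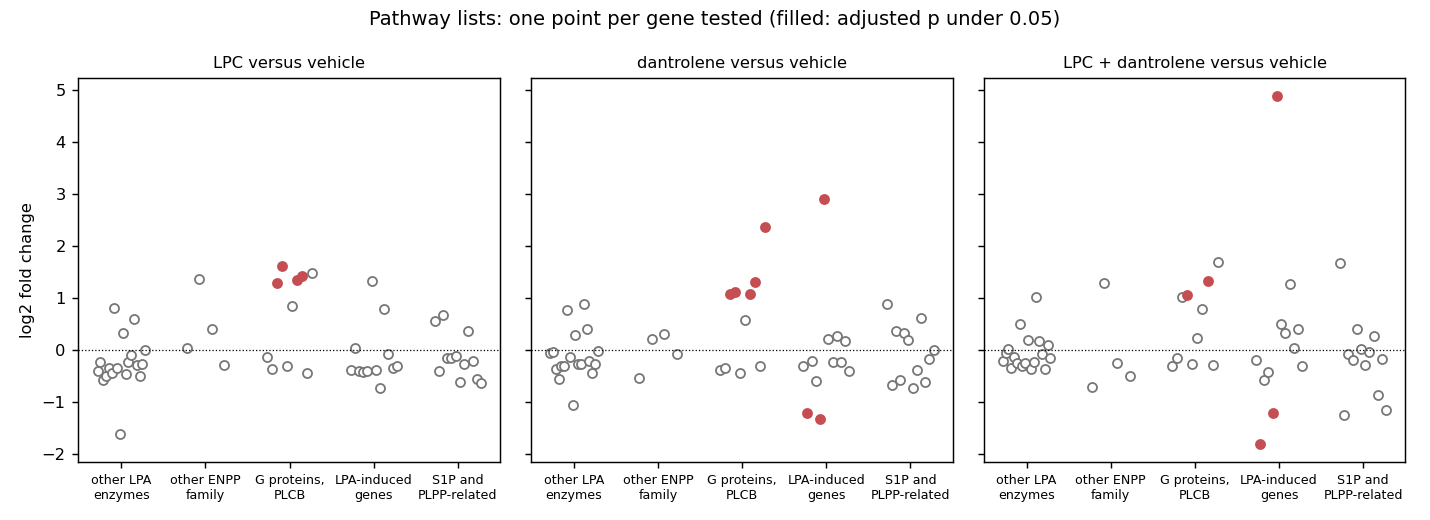
Log2 fold changes (vertical axis) of the tested genes of 5 pathway lists for each treatment against vehicle, 1 point per gene. Filled points had an adjusted p under 0.05 in edgeR, and these lie in the list of G proteins and phospholipases C (4, 5 and 2 genes, all higher) and in the list of LPA-induced genes (0, 3 and 3 genes).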

How the data were processed

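Poly(A) RNA libraries of 12 paVIC cultures were analysed. The authors aligned the reads, counted them per pig gene, adjusted the counts for isolation with ComBat and deposited whole-number counts not scaled for library size. The paper names STAR as the aligner, whereas the submitters' processing notes name HISAT2 2.0.5, DESeq2 1.32.0, R 4.1.1 and the build Sscrofa11.1. The deposited tables of the authors' own comparisons (fold changes and p-values) were not used.

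Counts were fitted in R 4.3.3 with edgeR 4.0.16 (filterByExpr, TMM, quasi-likelihood, group as the only term, all 12 libraries). The SE is the log2 fold change divided by the square root of F. Members and lists were chosen with earlier results of these data known. Named genes were all members, up to 3 called genes per list and direction with the smallest adjusted p, and the 3 genes most correlated with ENPP2. Some genes of the lists are not reported here. Further called list genes were named after their values were seen. Gene positions came from the RefSeq table of Sscrofa11.1, matched by symbol. Sequences were not used here.

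The sample titles give replicate numbers and name no isolation, and equal numbers were taken as 1 isolation and so as pairs. Deviations from group means correlated with a median r of −0.152 (−0.536 to 0.207) within isolations and 0.108 between different isolations. The counts had been adjusted for isolation with ComBat, so these values cannot show how alike libraries of an isolation were before. The part of that step in them was not tested. Alternatives were DESeq2 1.42.0, RLE factors, total counts, no filter, at least 10 counts in every library, only the groups compared, an adjusted p under 0.1, the isolation as a block and each library left out. The fit was also run on simulated counts drawn without isolations and without ComBat adjustment. That run does not give the error rate in the adjusted counts.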

Additional observations from a re-analysis of the deposited data

Results flagged for a closer look

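For 2 genes of the list of G proteins and phospholipases C, the effect of LPC differed between cells with and without dantrolene by the interaction term of edgeR's quasi-likelihood fit. The log2 effect of LPC was lower with dantrolene by −1.67 ± 0.48 for GNAI1 and −1.65 ± 0.49 for GNAQ (edgeR adjusted p = 0.0262 and 0.0318), with the same sign in 3 of 3 isolations for each. With dantrolene present, adding LPC changed GNAI1 by −0.06 and GNAQ by −0.30, against 1.61 and 1.35 without it. Dantrolene alone raised GNAI1 by 1.11 and GNAQ by 1.07 relative to vehicle. Over all genes, 4.65% were called for the interaction, 4.49% lower and 0.159% higher. The interactions of GNAI1 and GNAQ lost the call without vehicle replicate 2 or 3, LPC replicate 1 or 2 or dantrolene replicate 2, and that of GNAQ also without vehicle replicate 1 (edgeR adjusted p up to 0.198 and 0.206). Both lost it with total counts and with the replicate block.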

How the results depend on the processing

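The count of members called stayed at 0 in the 6 planned comparisons under every alternative run. For dantrolene averaged over LPC it went from 1 to 0 in DESeq2, with at least 10 counts in every library (ENPP2 was then not tested) and with the replicate block, and lay between 0 and 1 with each library left out. The paired fit changed no other call of a member.

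Of 873 alternative values of the members' log2 fold changes, 785 kept their direction and their side of the threshold, 10 lost the call and 78 changed sign, the last all among differences not called. With each library left out, the values that changed sign had the following ranges. For ENPP2 the interaction ranged from −0.42 to 0.80. For LPAR1 the ranges were −0.32 to 0.41 (LPC against vehicle), −0.46 to 0.038 (LPC + dantrolene against dantrolene), −0.56 to 0.17 (interaction) and −0.24 to 0.13 (LPC averaged). For LPAR2 they were −1.21 to 0.041 (dantrolene against vehicle) and −1.07 to 0.73 (LPC averaged). For PLPP1 they were −0.52 to 0.15 and −0.56 to 0.11 (both agents against LPC and against dantrolene) and −0.40 to 0.34 (interaction). For PLPP2 they were −0.31 to 0.084 (LPC) and −0.78 to 0.23 (LPC + dantrolene) against vehicle, −0.77 to 0.31 and −0.56 to 0.51 (both agents against LPC and against dantrolene), −0.55 to 0.59 (interaction), −0.49 to 0.016 (dantrolene averaged) and −0.29 to 0.22 (LPC averaged). For PLPP3 they were −0.55 to 0.27 (LPC), −0.71 to 0.061 (dantrolene) and −0.46 to 0.20 (LPC + dantrolene) against vehicle, −0.41 to 0.37 and −0.20 to 0.57 (both agents against LPC and against dantrolene), −0.15 to 0.69 (interaction), −0.40 to 0.023 (dantrolene averaged) and −0.21 to 0.26 (LPC averaged).

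With total counts alone, the sign changed for the interaction of ENPP2 (−0.17), PLPP1 (−0.15) and PLPP2 (−0.024), for LPC against vehicle in LPAR1 (0.16), PLPP2 (0.095) and PLPP3 (0.055), for dantrolene against vehicle in PLPP1 (0.045), for LPC + dantrolene against vehicle in PLPP2 (0.018) and for LPC averaged in LPAR1 (0.0030). The interaction of ENPP2 was −0.030 in DESeq2 and −0.031 with RLE factors. LPC against vehicle in LPAR1 was 0.030 in DESeq2 and with RLE factors, 0.064 with only the groups compared and 0.036 with the replicate block. The cause was not tested. Over all genes, the calls moved by over 1.5 times for LPC + dantrolene against vehicle (943, 618 with the replicate block, 553 with only the groups compared), for both agents against LPC (67, 19 with the block, 16 with only the groups compared, 7 with total counts, 110 at an adjusted p under 0.1), for the interaction (614, 280 with the block, 234 with total counts), for dantrolene averaged (529, 191 and 312) and for LPC averaged (414, 3 and 4, and 255 in DESeq2). For both agents against dantrolene they were 3, and 1 with total counts, at least 10 counts or only the groups compared, and 6 without a filter. With each library left out, the calls over all genes ranged from 687 (LPC replicate 2) to 1692 (LPC + dantrolene replicate 2) for LPC against vehicle (1148), from 429 (dantrolene replicate 2) to 1799 (LPC + dantrolene replicate 2) for dantrolene against vehicle (1163) and from 508 (LPC + dantrolene replicate 3) to 2099 (LPC + dantrolene replicate 2) for both agents against vehicle. They ranged from 9 (LPC replicate 2) to 140 (LPC + dantrolene replicate 2) for both agents against LPC, from 4 (LPC replicate 2) to 937 (LPC + dantrolene replicate 3) for the interaction, from 188 (dantrolene replicate 2) to 1665 (LPC + dantrolene replicate 2) for dantrolene averaged and from 2 (vehicle replicate 2 or dantrolene replicate 1) to 1343 (LPC + dantrolene replicate 2) for LPC averaged. For both agents against dantrolene they lay between 1 (LPC replicate 2 or dantrolene replicate 1) and 6 (LPC replicate 3 or LPC + dantrolene replicate 3). With total counts the share of calls that were higher went from 43.3% to 71.4% (both agents against LPC), from 66.7% to 100% (against dantrolene), from 63.7% to 76.9% (dantrolene averaged) and from 99.0% to 75% (LPC averaged).

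Groups of 3 libraries, few counts for LPAR2 and LPAR3 and counts already adjusted for isolation limit what can be detected. The 95% intervals against vehicle still span −0.97 to 0.46 for PLPP1 and −0.69 to 1.27 for LPAR1 on the log2 scale.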
